A study of Homo sapiens with 10 samples.

Results

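The genes described here are 10 identity genes of the retinal pigment epithelium, chosen by name from the 62700 genes of the count table: MITF, OTX2, PAX6, PMEL, TYRP1, RPE65, RLBP1, BEST1, SERPINF1 and MERTK. All 10 were in the table, and 7 of the 10 passed the filter on low counts, while TYRP1, RLBP1 and RPE65 did not. They were measured in polyadenylated RNA of RPE p53-/- cells, a human cell line from the retinal pigment epithelium without p53. There were 5 samples of the parental control and 5 with an added CCAR1 knockout. Both groups lack p53 and were grown in DMEM/F12 with GlutaMAX and fetal bovine serum. The labels do not say whether the knockout cells are 1 clone or whether replicates were separate cultures, so a p-value here reflects only how these samples spread, which may be technical. The series title calls CCAR1 a splicing factor, and the design text asks for the effect of its loss across the genome.

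The retinal pigment epithelium is a pigmented cell layer behind the photoreceptors. The transcription factors MITF, OTX2 and PAX6 specify it during eye development, and MITF and OTX2 activate genes of melanin synthesis there. The mature layer regenerates the visual chromophore with RPE65 and the retinoid carrier RLBP1, moves ions with the channel BEST1, secretes the neurotrophic factor encoded by SERPINF1, and engulfs shed photoreceptor tips with the receptor kinase MERTK. Cultured lines of this epithelium that divide rapidly are known to keep little pigment.

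Library totals (in 1e6 counts, M) were 52.6 to 65.2 M in replicates 1 to 3 of each genotype and 320.6 to 385.4 M in replicates 4 and 5, called the shallow and deep libraries here (a split seen in the totals, not given by the labels). Transcripts of skeletal muscle, liver and red blood cells were higher in the shallow libraries. The 10 measured of 11 skeletal muscle markers summed to 214 to 571 CPM (counts divided by the scaled library size, times 1000000) in shallow and 7.73 to 9.64 CPM in deep libraries, and the 6 erythroid markers to 22.0 to 182 CPM and 0.161 to 0.202 CPM. The targeted gene was at 125.4, 132.6, 134.0, 173 and 173 CPM in parental replicates 1 to 5 and at 92.3, 95.6, 88.5, 125.7 and 125.5 CPM in the knockout replicates. CCAR1 RNA was thus lower in knockout than in parental libraries of like depth, at 0.714 of the parental mean (log2 fold change -0.48, standard error 0.14, adjusted p = 0.0201). Unless another fit is named, each adjusted p comes from the quasi-likelihood test of edgeR (Benjamini-Hochberg, all 18979 genes that passed the filter), with a threshold of 0.05. Exact permutation tests compared mean log2 CPM between genotypes, were two-sided, and are given without adjustment for the 10 members tested. They exchanged all 10 libraries freely and took no account of depth, although shallow and deep libraries differed. Every mean ± SD has n = 5.

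OTX2 and BEST1 rose in knockout cells, PAX6 fell, and MITF, PMEL, SERPINF1 and MERTK did not pass the test. These 3 of 7 members tested are 42.9%, beside 36.6% of all genes tested. Those called higher made up 19.7% of all genes tested and those called lower 16.9%. The share of members called is thus near the background. In bulk RNA, fewer cells of a type and less RNA per cell cannot be told apart. The median log2 fold change of the 7 was 0.09, beside 0.02 over all genes tested. TYRP1, which lay under the filter, was lower in every knockout library than in any parental library. The parental and knockout ranges were apart for OTX2 and PAX6, 2 of the 7 members tested, beside 30.6% of all genes tested. They were also apart for TYRP1, which is not among the genes tested. With the replicate number as a block the same 3 members passed, where 61.2% of all genes passed (31.1% higher and 30.1% lower).

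**Figure D1:**
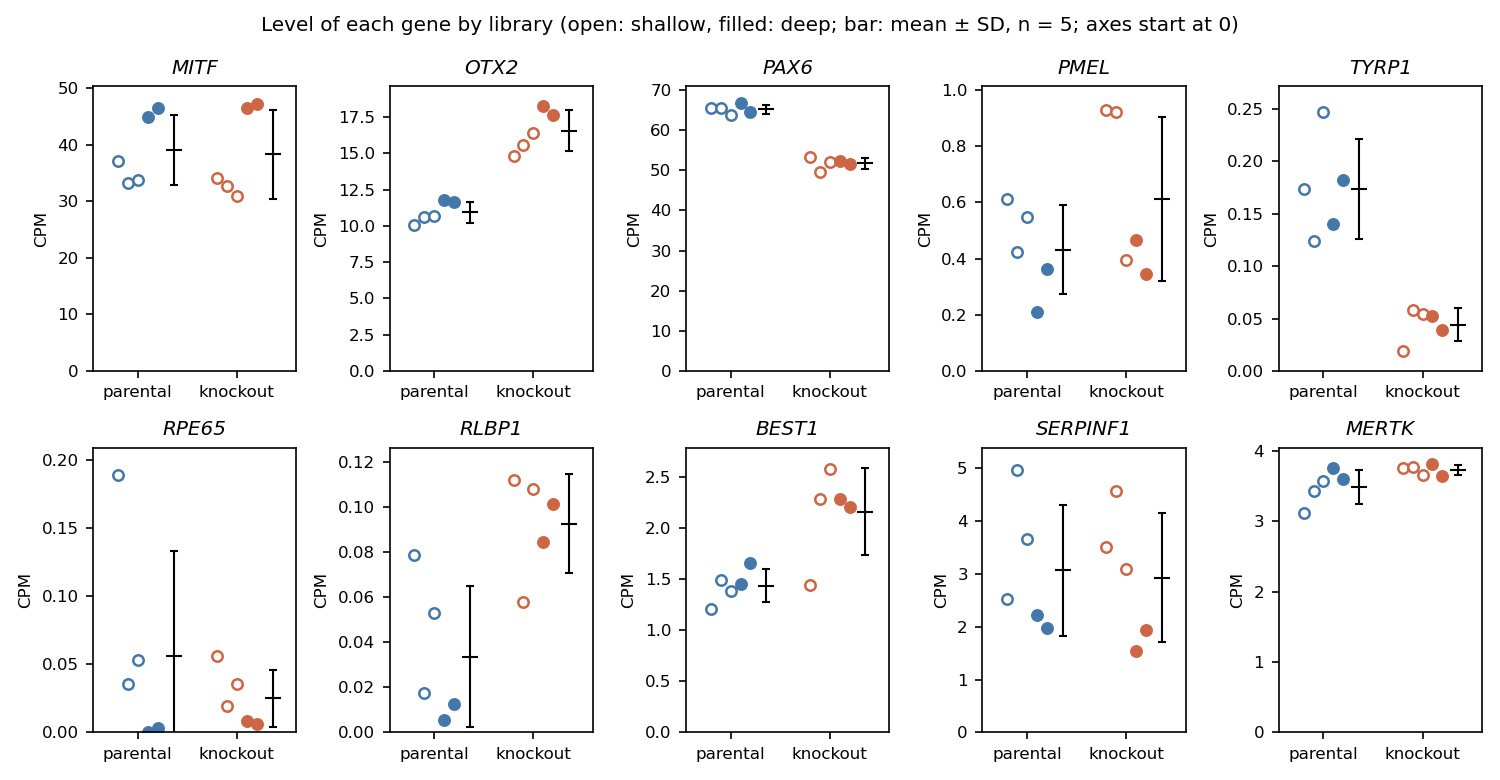
Level of each of the 10 genes in CPM (vertical axis from 0) in the 5 parental and 5 knockout libraries, with open points for shallow and filled points for deep libraries and black bars for mean ± SD (the bar of RPE65 is cut at 0). OTX2, PAX6 and TYRP1 have no overlap between genotypes, while MITF and SERPINF1 separate by depth and not by genotype.

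OTX2, a homeodomain transcription factor of the early eye and a direct activator of pigment genes, rose 1.51-fold. The gene lies on chromosome 14 (ENSG00000165588.19, GRCh38, 56799905 to 56810479, minus strand). Its level was 10.1, 10.6, 10.7, 11.8 and 11.6 CPM in parental replicates 1 to 5. In knockout replicates 1 to 5 it was 14.9, 15.6, 16.4, 18.3 and 17.7 CPM. Each knockout library lay above every parental library, and in both genotypes the deep libraries were the higher ones. The means were 10.9 ± 0.734 and 16.6 ± 1.43 CPM (log2 fold change 0.60, standard error 0.079, adjusted p = 1.94e-04). The exact permutation p was 0.00794, the smallest that 5 samples against 5 can give. Taken alone, the shallow libraries gave a log2 fold change of 0.57 and the deep libraries one of 0.60.

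PAX6, a paired-box factor at the top of eye development, fell to 0.795 of its parental level. The gene lies on chromosome 11 (ENSG00000007372.25, 31784779 to 31818062, minus strand). Parental replicates 1 to 5 were at 65.5, 65.5, 63.7, 66.8 and 64.5 CPM, and knockout replicates 1 to 5 at 53.3, 49.6, 52.1, 52.5 and 51.7 CPM. The spread within each genotype was small, and shallow and deep libraries were at like levels. The means were 65.2 ± 1.18 and 51.8 ± 1.37 CPM (log2 fold change -0.33, standard error 0.049, adjusted p = 3.91e-04, exact permutation p = 0.00794). Exons of PAX6 overlap exons of ELP4, a gene of the opposite strand, over 5241 bases, and those of PAUPAR over 191 bases. The estimated count of PAX6 was within 0.01 of a whole number in 0 of 10 libraries. ELP4 was at 14.2 ± 1.68 and 12.3 ± 1.599 CPM and did not pass (adjusted p = 0.171). The part of shared reads in the PAX6 value was not tested.

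MITF, the basic helix-loop-helix factor that governs pigment cells, did not pass. The gene is on chromosome 3 (ENSG00000187098.18, 69739435 to 69968337, plus strand). Its level was 37.2, 33.3, 33.7, 44.8 and 46.4 CPM in parental replicates 1 to 5 and 34.1, 32.8, 30.9, 46.5 and 47.1 CPM in knockout replicates 1 to 5. The deep libraries were above the shallow ones in both genotypes, by 1.31-fold in parental and 1.44-fold in knockout cells, and the genotypes overlapped. Its log2 fold change was -0.03 (standard error 0.15, adjusted p = 0.914). With the replicate block the standard error was 0.041 and the adjusted p = 0.472. The table counts genes, so the several promoter forms of MITF were not told apart.

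TYRP1, an enzyme of brown-black melanin synthesis and a textbook MITF target, was at a trace level and lower in knockout cells. TYRP1 maps to chromosome 9 (ENSG00000107165.13, 12685439 to 12710290, plus strand). Parental replicates 1 to 5 held 11, 7, 14, 53 and 58 counts, or 0.173, 0.124, 0.247, 0.140 and 0.182 CPM. Knockout replicates 1 to 5 held 1, 3, 3, 18 and 13 counts, or 0.0186, 0.0577, 0.0539, 0.0525 and 0.0387 CPM. The ranges were apart, and the parental mean was 3.91 times the knockout mean (exact permutation p = 0.00794). The shallow knockout libraries held 3 counts or fewer each, so the size of the difference is uncertain there. TYRP1 did not pass the filter. In the fit with no filter, which called 13.6% of 45973 genes (7.62% higher and 5.93% lower), its log2 fold change was -1.94 (standard error 0.36, edgeR adjusted p = 0.00169), and in the deep libraries alone, where 57.0% of genes were called (28.9% higher and 28.1% lower), it was -1.82 (edgeR adjusted p = 2.02e-04). Its exons share 102 bases with LURAP1L-AS1, an antisense gene that fell from 1.41 ± 0.475 to 0.587 ± 0.116 CPM (adjusted p = 0.00263). The TYRP1 counts were within 0.01 of a whole number in 10 of 10 libraries, and the part of shared reads was not tested.

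The promoter of TYRP1 is shown because it carries a match to a motif of the MITF family and to a motif of OTX factors. RLBP1 is shown because its single match is for the OTX motif. No motif of PAX6 was searched. The sequences are from RefSeq (GRCh38.p14), which held 18 promoters of 7 of the 10 genes. PMEL, BEST1 and SERPINF1 had none there and were not searched. Capitals mark TCATGTG, the core of the M-box bound by the MITF family, and TAATCC, the core bound by OTX homeodomains, which reads GGATTA on the other strand. The TYRP1 stretch is chr9:12693135-12693308 on the plus strand, and ends 77 bases before the RefSeq start. The RLBP1 window is chr15:89221623-89221652 on the minus strand, its match begins 61 bases before the start, and it lies within an annotated exon.
TYRP1: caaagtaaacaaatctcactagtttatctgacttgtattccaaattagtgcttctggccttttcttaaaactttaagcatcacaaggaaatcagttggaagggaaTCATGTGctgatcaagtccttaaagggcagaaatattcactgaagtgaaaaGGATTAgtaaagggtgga
RLBP1: cttatgacacacTAATCCcaacctgctgac
TCATGTG was searched on both strands in the 250 bases before each start and was found in 2.52% of all 35116 promoters. Among the 18 member promoters it was found in 1, that of TYRP1. TAATCC was found on either strand in 5.62% of all promoters and in 2 of the 18, those of TYRP1 and RLBP1. TYRP1 has another TAATCC match on the same strand as the first, 34 bases before the start and within an annotated exon, which the stretch shown does not reach. CACGTG, which reads the same on both strands, was found in 6.34% of all promoters and in 0 of the 18. A match describes these letters only.

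PMEL, which forms the fibrils on which melanin is laid down, was at a low level, with 22 to 160 counts in each library. PMEL maps to chromosome 12 (ENSG00000185664.15, 55954105 to 55973317, minus strand). Parental replicates 1 to 5 were at 0.614, 0.424, 0.548, 0.209 and 0.364 CPM. Knockout replicates 1 to 5 were at 0.931, 0.923, 0.395, 0.467 and 0.345 CPM. The genotypes overlapped, and the shallow libraries had 1.85 times the level of the deep ones in both. Its log2 fold change was 0.51 (standard error 0.38, adjusted p = 0.341). PMEL shares 89 exonic bases with CDK2 of the opposite strand, which is far more abundant and fell from 90.1 ± 3.37 to 72.7 ± 0.896 CPM (adjusted p = 6.56e-04).

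RPE65, the isomerase of the visual cycle and the most specific marker of mature pigment epithelium, was close to absent. RPE65 maps to chromosome 1 (ENSG00000116745.7, 68428822 to 68449959, minus strand). Its counts were 12, 2, 3, 0 and 1 in parental and 3, 1, 2, 3 and 2 in knockout replicates 1 to 5. The deep libraries held 0 to 3 counts and the shallow libraries 1 to 12, and 12 was parental replicate 1 alone. A count of 0 in parental replicate 4 allows a level of up to 0.00793 CPM, by a floor of 3 counts that covers counting error only. No fold change is given, since 9 of 10 libraries were at or under that floor (exact permutation p = 0.683).

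RLBP1, which carries retinoids between visual cycle enzymes, was at a trace level. The gene is on chromosome 15 (ENSG00000140522.12, 89209869 to 89221751, minus strand). Its counts were 5, 1, 3, 2 and 4 in parental replicates 1 to 5 and 6, 3, 6, 29 and 34 in knockout replicates 1 to 5. In the deep libraries the genotypes were apart, with 6 counts in parental and 63 in knockout libraries together. In the shallow libraries the sums were 9 and 15 counts and the ranges overlapped. No fold is given for the deep libraries alone, where RLBP1 passed the filter through the knockout libraries only and the parental counts were near the floor of 3. Over all libraries with no filter the log2 fold change was 1.84 (standard error 0.63) and missed the threshold (edgeR adjusted p = 0.0713). Parental counts of 1 to 5, near that floor, limit this value too. The exact permutation p of RLBP1 was 0.0159. The interaction of genotype and depth in that fit did not pass (edgeR adjusted p = 0.302).

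BEST1, a calcium-activated chloride channel of the basolateral membrane, rose at a low level. BEST1 maps to chromosome 11 (ENSG00000167995.17, 61949821 to 61965515, plus strand). Parental replicates 1 to 5 were at 1.20, 1.49, 1.38, 1.45 and 1.65 CPM. Knockout replicates 1 to 5 were at 1.44, 2.29, 2.58, 2.28 and 2.20 CPM. The ranges overlapped through knockout replicate 1 alone, which lay among the parental libraries. The means were 1.43 ± 0.164 and 2.16 ± 0.424 CPM (log2 fold change 0.59, standard error 0.15, adjusted p = 0.0124, exact permutation p = 0.0238). Taken alone, the shallow libraries gave 0.63 and the deep libraries 0.52.

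BEST1 overlaps FTH1, the very abundant ferritin heavy chain gene of the opposite strand, with 1267 exonic bases in common. The BEST1 estimate was within 0.01 of a whole number in 0 of 10 libraries. FTH1 was at 1241, 2148, 1965, 1788 and 1889 CPM in parental replicates 1 to 5 and at 2356, 2556, 2808, 2241 and 2006 CPM in knockout replicates 1 to 5. FTH1 was higher in knockout cells too (log2 fold change 0.41, standard error 0.14, adjusted p = 0.0470). Parental replicate 1 was lowest and knockout replicate 3 highest for both genes, while knockout replicate 1 had high FTH1 and low BEST1. The sources used here do not give the strand setting of the counting. The part of FTH1 reads in the BEST1 value was not tested.

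**Figure D2:**
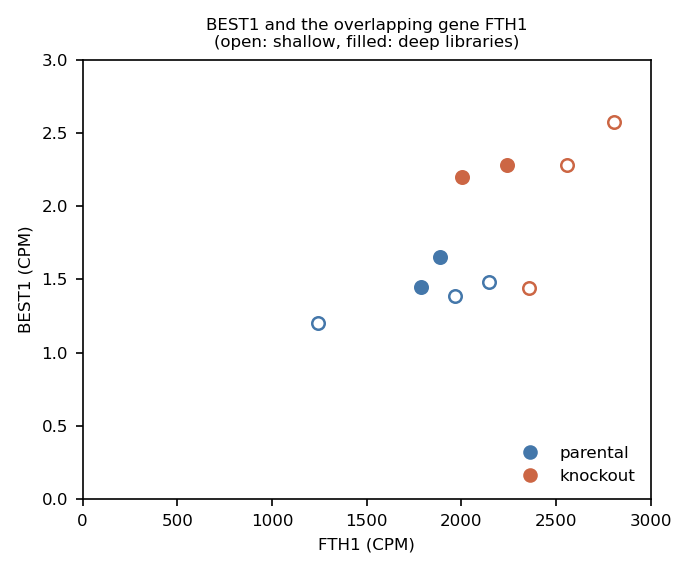
BEST1 (vertical axis, CPM) against the overlapping gene FTH1 (horizontal axis, CPM) in the 10 libraries, with open points for shallow and filled points for deep libraries. The 4 knockout libraries other than replicate 1 lie at 2.20 to 2.58 CPM of BEST1, above all parental libraries, and of these replicate 5 alone lies within the parental range of FTH1.

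SERPINF1, which encodes pigment epithelium-derived factor, a secreted inhibitor of vessel growth, did not pass. SERPINF1 maps to chromosome 17 (ENSG00000132386.11, 1761959 to 1777574, plus strand). Parental replicates 1 to 5 were at 2.52, 4.96, 3.65, 2.23 and 1.97 CPM, and knockout replicates 1 to 5 at 3.50, 4.56, 3.09, 1.53 and 1.93 CPM. The genotypes overlapped, and every shallow library was above every deep one, with shallow means 1.77 times the deep mean in parental and 2.15 times in knockout cells. The gene is also made by liver and other tissues, and the 10 liver markers summed to 43.3 to 119.7 CPM in shallow and 2.03 to 3.28 CPM in deep libraries, with APOC3 at 0 in all deep libraries. The part of such transcripts in the SERPINF1 level was not tested. Its log2 fold change was -0.07 (standard error 0.34, adjusted p = 0.906). In the deep libraries alone it was -0.30 (standard error 0.11, edgeR adjusted p = 0.0385). The protein-coding genes of chromosome 17 had a median of -0.28, and with that median removed the value over all libraries was 0.21 (edgeR adjusted p = 0.706). Of 31 protein-coding genes tested within 1 Mb of SERPINF1, 21 fell and 1 rose.

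MERTK, the receptor kinase that triggers uptake of photoreceptor tips, did not pass. The gene is on chromosome 2 (ENSG00000153208.19, 111898479 to 112029561, plus strand). Parental replicates 1 to 5 were at 3.12, 3.43, 3.57, 3.76 and 3.60 CPM and knockout replicates 1 to 5 at 3.76, 3.77, 3.66, 3.82 and 3.64 CPM. The shallow libraries of the genotypes were just apart and the deep ones overlapped. Its log2 fold change was 0.09 (standard error 0.076, adjusted p = 0.385). The exact permutation p was 0.0397 before any adjustment for the 10 members tested this way, and it was 0.230 with DESeq2 size factors.

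Ligands and relatives of MERTK were also measured. GAS6, its bridging ligand, fell from 278 ± 45.4 to 109.6 ± 24.1 CPM (log2 fold change -1.34, adjusted p = 1.35e-04). It is encoded on chromosome 13, whose genes had a median of -0.41, and its value was -0.93 with the chromosome median removed. The other ligand, PROS1, rose from 10.7 ± 1.61 to 16.2 ± 2.51 CPM (adjusted p = 0.00517). AXL, a receptor of the same family, fell from 1367 ± 77.3 to 1010 ± 90.7 CPM (adjusted p = 9.30e-04), and TYRO3 was at 36.3 ± 0.892 and 34.6 ± 1.93 CPM without a call (adjusted p = 0.401).

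**Figure D3:**
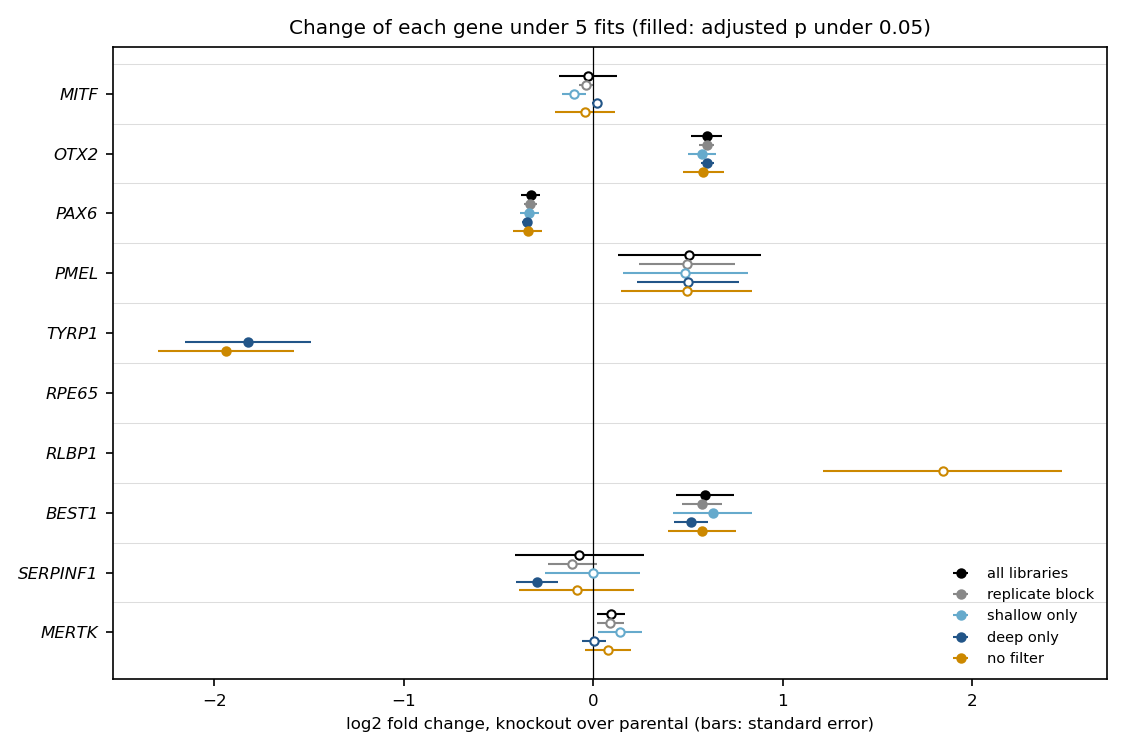
Log2 fold change of each gene, knockout over parental (horizontal axis), with standard errors, in the fit of all libraries, with the replicate block, in shallow or deep libraries alone, and with no filter on low counts. OTX2 near 0.60, PAX6 near -0.33 and BEST1 near 0.59 keep their sign and call in each of these fits. TYRP1 is drawn for the deep libraries and for no filter, RLBP1 for no filter alone, and RPE65 has no value.

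Levels can be compared between genes only per length. Per kilobase (kb) of the median protein-coding transcript in GENCODE, parental cells had PAX6 at 25.4 ± 0.461 CPM per kb, MITF at 11.9 ± 1.88, and OTX2 at 10.1 ± 0.679 CPM per kb. The neighbours MITF and OTX2 did not differ beyond their spread in parental cells, and in knockout cells OTX2 stood at 15.3 ± 1.32 and MITF at 11.6 ± 2.40 CPM per kb. SERPINF1 followed at 1.98 ± 0.801, MERTK at 1.03 ± 0.0712 and BEST1 at 0.628 ± 0.0717 CPM per kb in parental cells. PMEL at 0.199 ± 0.0734 and TYRP1 at 0.0931 ± 0.0257 CPM per kb came next, and RPE65 and RLBP1 were at 0.0215 ± 0.0297 and 0.0185 ± 0.0173 CPM per kb, which did not differ beyond their spread. Per length, the 3 transcription factors were thus above all other members, and the pigment and visual cycle members were the lowest. The order of PAX6, MITF and OTX2 among themselves depends on the length used. Their median transcripts were 2.56, 3.29 and 1.08 kb, while all their exons joined came to 20.8, 7.18 and 3.27 kb. Among other defining genes, TYR, DCT, RGR and KCNJ13 reached at most 0.0472, 0.0372, 0.133 and 0.0317 CPM in any library, and MLANA 0.220 CPM. LRAT reached at most 0.795 CPM, while RDH5 of the visual cycle was at 6.08 to 17.8 CPM.

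Of 16 other transcription factors of the eye field and pigment epithelium, 11 were tested, of which 4 rose, 1 fell and 6 did not pass (45.5% called), with a median log2 fold change of 0.10. For this list and those below, the background is 36.6% of all genes tested called (19.7% higher and 16.9% lower). With the replicate block it is 61.2% (31.1% higher and 30.1% lower). The lists are small, so their shares are descriptions only. The orphan nuclear receptor NR2F1 rose from 149.5 ± 17.1 to 314 ± 63.4 CPM (adjusted p = 2.06e-04). LHX2, a LIM-homeodomain factor of the optic vesicle, rose from 0.305 ± 0.0689 to 0.596 ± 0.132 CPM (adjusted p = 0.00459). OTX1 and SIX3 were the others that rose. SOX9, a partner of MITF and OTX2 in pigment epithelium, fell from 66.2 ± 3.56 to 55.0 ± 5.81 CPM (adjusted p = 0.0226), but its log2 fold change went from -0.27 to 0.01 with the median of chromosome 17 removed. RAX and SIX6, factors of the eye field, were at 0 in all deep libraries. With the replicate block 5 rose and 4 fell, and with chromosome medians removed 3 rose and 0 fell.

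Of 24 other melanosome and pigment genes 16 were tested, of which 2 rose, 6 fell and 8 did not pass, with a median of -0.19. GPNMB, a melanosomal glycoprotein related to PMEL, rose from 60.2 ± 6.08 to 122.7 ± 5.43 CPM (adjusted p = 3.59e-06). MLPH, which links melanosomes to myosin, rose from 37.9 ± 1.91 to 75.4 ± 3.54 CPM (adjusted p = 7.59e-07). RAB32 and HPS1, which serve melanosome formation, fell from 107.7 ± 5.22 to 64.2 ± 10.1 CPM and from 96.5 ± 9.40 to 61.9 ± 6.43 CPM (adjusted p = 2.85e-04 and 3.54e-04). The log2 fold change of RAB32 was -0.75, and -0.43 with the median of chromosome 6 removed. The genes tested here are mostly general trafficking genes, and TYR, DCT, MLANA and OCA2 did not pass the filter. With the block 4 rose and 9 fell.

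Of 15 visual cycle and retinoid genes, RLBP1 and RPE65 included, 10 were tested, of which 6 rose, 1 fell and 3 did not pass (70.0% called), with a median of 0.62. RBP4, which was tested and did not pass, was at 0 in all deep libraries. RDH5, the retinol dehydrogenase that completes chromophore synthesis in pigment epithelium, rose from 6.88 ± 0.687 to 13.8 ± 2.91 CPM (log2 fold change 1.01, adjusted p = 3.18e-04). DHRS3, which reduces retinal to retinol, rose from 1.36 ± 0.569 to 4.48 ± 1.64 CPM (adjusted p = 0.00332). LRAT, which esterifies retinol, rose from 0.399 ± 0.0673 to 0.620 ± 0.152 CPM (adjusted p = 0.0302), but its ranges overlapped and the call was lost with shallow libraries alone (log2 fold change 0.45, edgeR adjusted p = 0.229). RDH10 and RDH11 were among the others that rose. CRABP2, a retinoic acid carrier, fell from 12.3 ± 1.86 to 8.40 ± 1.02 CPM (adjusted p = 0.00433). With the block 7 rose and 1 fell, and each depth alone gave a median of 0.54 (shallow) or 0.82 (deep).

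Of 13 phagocytosis genes 2 rose, 4 fell and 7 did not pass (46.2% called), with a median of 0.05. TUB, described as a MERTK ligand, fell from 3.78 ± 0.395 to 0.545 ± 0.0350 CPM (log2 fold change -2.79, adjusted p = 3.08e-08). LRP1, an endocytic receptor, rose from 364 ± 30.7 to 538 ± 42.1 CPM (adjusted p = 2.28e-04). With the block 3 of these rose and 4 fell. Of 16 ion transport and barrier genes 12 were tested, of which 1 rose and 3 fell (33.3% called). EZR, the ezrin gene of apical microvilli, fell from 1240 ± 79.0 to 511 ± 36.1 CPM (log2 fold change -1.28, and -0.96 with the median of chromosome 6 removed). SLC4A4, a sodium bicarbonate cotransporter, fell from 4.16 ± 1.11 to 1.37 ± 0.393 CPM (adjusted p = 5.72e-04), and the chloride channel CLCN2 rose from 10.2 ± 0.965 to 12.2 ± 1.05 CPM (adjusted p = 0.0450). CLCN2 lost its call with chromosome medians removed (edgeR adjusted p = 0.0834), when 0 of the list rose and 2 fell, and with the block 3 rose and 4 fell.

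Of 14 secreted and matrix genes 12 were tested, of which 3 rose and 2 fell (41.7% called), and 4 and 3 with the block. PLTP, a phospholipid transfer protein, rose from 12.3 ± 1.82 to 44.2 ± 6.08 CPM (adjusted p = 2.29e-06), and VEGFA, the vessel growth factor opposed by the SERPINF1 product, from 36.3 ± 3.07 to 55.8 ± 5.65 CPM (adjusted p = 3.03e-04). VEGFA is on chromosome 6, and its log2 fold change went from 0.62 to 0.94 with that median removed. BMP4 fell from 13.0 ± 1.86 to 3.09 ± 0.949 CPM and TIMP3, an inhibitor of matrix proteases, from 6.22 ± 0.677 to 3.35 ± 0.970 CPM (adjusted p = 3.44e-05 and 0.00433). Of 15 genes described as MITF targets outside pigment 12 were tested, of which 2 rose and 4 fell (3 and 5 with the block), with a median of -0.24. HIF1A rose from 235 ± 41.6 to 353 ± 72.2 CPM and CDKN1A, on chromosome 6, fell from 53.03 ± 4.55 to 33.3 ± 5.64 CPM (log2 fold change -0.67, and -0.35 with the chromosome median removed).

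**Figure D4:**
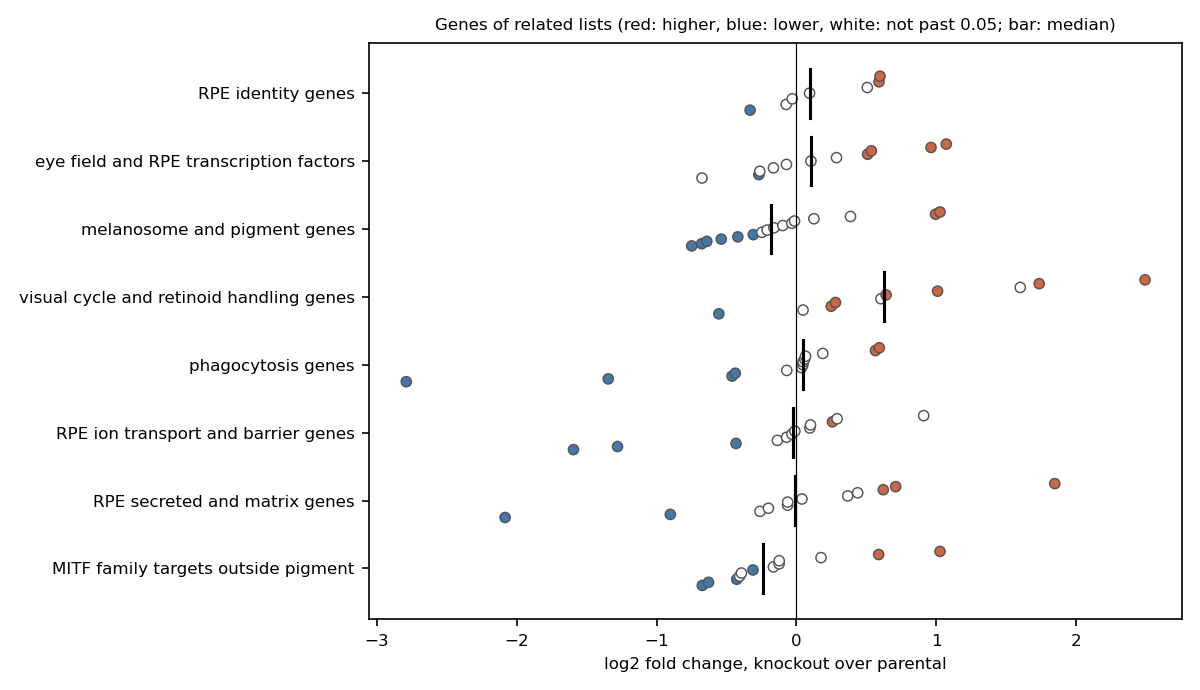
Log2 fold change, knockout over parental (horizontal axis), of every tested gene of 8 lists, with red points past the threshold and higher, blue points past it and lower, white points not past it, and a black bar for each median. The visual cycle and retinoid list has the highest median of these lists at 0.62, and the pigment genes have a median of -0.19. Of all genes tested, 19.7% were past the threshold and higher and 16.9% past it and lower.

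Markers of other cell types bear on the label. Of 14 photoreceptor and neural retina markers 3 were tested, and the list summed to 1.38 to 1.93 CPM over all libraries. NRL, a rod transcription factor, fell from 1.06 ± 0.203 to 0.594 ± 0.136 CPM (adjusted p = 0.00777), and ARR3, the cone arrestin, rose from 0.193 ± 0.063 to 0.377 ± 0.0530 CPM (adjusted p = 0.0126, and 0.0508 by edgeR in the shallow libraries alone). Of 8 melanocyte and neural crest markers 3 were tested, and the list summed to 1.76 to 3.08 CPM in shallow and 0.948 to 1.61 CPM in deep libraries. That list was higher in shallow libraries, as PMEL was, and its part in the PMEL level was not tested. EDNRB, an endothelin receptor of melanocytes and neural crest, fell from 0.510 ± 0.0932 to 0.0660 ± 0.0471 CPM with ranges apart (adjusted p = 0.0031). Its lowest knockout library, at 0.00297 CPM, was under the floor, and its part in the lower level of TYRP1 was not tested. Of 10 epithelial markers 2 fell, OCLN from 6.05 ± 1.20 to 2.22 ± 0.540 CPM and CLDN1 from 6.49 ± 0.479 to 3.23 ± 0.892 CPM (adjusted p = 1.90e-04 and 0.00122), and with the block 1 rose and 5 fell. Of 12 mesenchymal markers 5 rose and 2 fell (5 and 3 with the block), among them FN1, from 1109 ± 55.1 to 3070 ± 482 CPM, and ACTA2, from 24.2 ± 2.54 to 14.2 ± 1.38 CPM.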

How the data were processed

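Polyadenylated RNA of 5 parental and 5 knockout samples was sequenced, and groups and replicate numbers come from the sample titles. The values the authors deposited are estimated counts (an expected count for each gene in each library) without scaling. Per the submitters' processing notes they used kallisto 0.48.0 and hg38, with annotation release and strand setting not given in the sources used here. Counts were rounded. Genes were kept by edgeR's filterByExpr (18979 of 62700), scaled by TMM and fitted with genotype as the term in a robust quasi-likelihood model (edgeR 4.0.16, R 4.3.3). CPM uses the scaled library size. Standard errors come from the coefficient and its F statistic. For single genes, log2 CPM (prior count 3) was compared by exact permutation, two-sided. Depth classes were split at the widest gap in log totals.

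The members and lists were chosen with earlier results of these data known. Named genes are CCAR1, the 10 members, up to 2 per list and direction with the smallest adjusted p, fixed defining genes and partners, genes that overlap a member, nearest tested neighbours of members past 0.05, and the 3 genes most alike OTX2 and PAX6. Other genes that complete a count were named after their values were seen, and some genes of the lists are not reported here. GENCODE 29 (GRCh38) gave positions and lengths for 95.1% of the genes tested.

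Deviations from the group mean correlated across genes between samples 1 to 5 of the genotypes at 0.640, 0.584, 0.606, 0.899 and 0.894. Libraries of the same depth with other numbers correlated alike, so these values cannot tell pairing from depth. Same numbers were used as blocks in an alternative fit without evidence that they are pairs. The fit with the replicate block is given beside each list count it changes. Chi-square per gene between replicates of like depth was 6.95 to 26.5, above sampling noise, and no replicates were merged. Scripts were tested on simulated data. Alternatives were DESeq2 size factors, library size only, other filters, DESeq2 1.42.0, limma-voom (limma 3.58.1), the replicate block, depth as a term, each depth alone, thinning, removal of chromosome medians, and each library left out.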

Additional observations from a re-analysis of the deposited data

Results flagged for a closer look

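In 1 parental library, RPE65 stood far from the others of its group, at 0.189 CPM (12 counts) in parental replicate 1, with the next at 0.0530 CPM. In the same library TYR was at 0.0472 CPM (next 0.0177) and CRABP2 at 15.55 CPM (next 12.2). In parental replicate 3, LHX2 was at 0.424 CPM (next 0.288) and RN7SL297P, a small RNA copy inside MERTK, at 0.0177 CPM (next 0.00314). MLPH was at 81.5 CPM in knockout replicate 3 (next 75.05). These 6 were picked out of 140 groups of 5 by Dixon's gap test, which chance alone passes in about 1 of 20 groups. TYR and RN7SL297P rest on 3 counts or fewer.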

How the results depend on the processing

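OTX2, PAX6 and BEST1 kept their sign and call in every alternative run. Without each library in turn, the log2 fold change of OTX2 ran from 0.55 to 0.63, that of PAX6 from -0.35 to -0.32 and that of BEST1 from 0.51 to 0.69, with a largest edgeR adjusted p of 0.0327 for BEST1 (0.0494 with no filter). Members called lower were 1 over all libraries, 2 with no filter (TYRP1 added) and 3 in the deep libraries alone (TYRP1 and SERPINF1 added). Members called higher were 2 over all libraries and with no filter. In the deep libraries alone they were 3 (RLBP1 added, which passed the filter through the knockout libraries only). Of all genes in the deep libraries alone, 28.9% were called higher and 28.1% lower. Genes called were 6939 of 18979, and 11619 with the replicate block, 12149 with depth as a term and 15320 of 26859 in the deep libraries alone. The replicate block changed no member's call. MITF, never called, changed sign with library size only (0.0346), the filter of 1 CPM in 5 libraries (0.0029) and the deep libraries alone (0.0199), and ran from -0.11 to 0.0372 with a library left out (-0.12 to 0.0314 as a difference of mean log2 CPM). SERPINF1 changed sign with the chromosome median removed (0.21) and ran from -0.30 to 0.16 with a library left out (-0.28 to 0.11 for mean log2 CPM). RPE65 ran from -0.70 to 0.19 that way, and was positive only without parental replicate 1. PMEL's interaction of genotype and depth was 0.02, and -0.0038 with no filter. MERTK's exact permutation p ran from 0.0159 to 0.0794 with a library left out, where the smallest possible is 0.0159, and missed the threshold without any of 7 libraries. No interaction passed for the 7 members (0.601% of genes did). TYRP1, RLBP1 and RPE65 have no value where the filter removed them, and their few counts limit them. The cause of these changes was not tested.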

Other observations

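Across the 10 libraries the log2 CPM of OTX2 was most like that of ADTRP, FAM227A and PCDHGA1 (Pearson's r = 0.997, 0.993 and 0.993), and that of PAX6 most like GGA2, MUSK and BRD2 (r = 0.992, 0.991 and 0.991). These are descriptions over libraries that share 2 genotypes and 2 depths, and 826 and 1137 of 13993 protein-coding genes compared had r above 0.9 with OTX2 and PAX6. ADTRP rose from 26.8 ± 3.44 to 50.4 ± 6.59 CPM, FAM227A from 1.30 ± 0.125 to 3.35 ± 0.794 CPM and PCDHGA1 from 2.13 ± 0.255 to 6.07 ± 0.903 CPM. MUSK, the receptor kinase of the neuromuscular junction, fell from 0.786 ± 0.0869 to 0.0258 ± 0.0176 CPM, GGA2 from 85.5 ± 1.34 to 54.8 ± 1.76 CPM and BRD2, on chromosome 6, from 229.9 ± 2.36 to 156.5 ± 3.49 CPM.

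Neighbours on the chromosome did not all move with the members that passed. Beside OTX2, TMEM260 and EXOC5 did not pass (edgeR adjusted p = 0.116 and 0.532). Beside PAX6, RCN1 fell from 353.5 ± 26.6 to 248 ± 10.3 CPM and IMMP1L did not pass (edgeR adjusted p = 0.120). Of 7 protein-coding genes tested within 1 Mb of PAX6, 3 fell and 0 rose. Their median log2 fold change was -0.28, beside -0.33 for PAX6 itself and a median of 0.0072 for chromosome 11. Within 1 Mb of OTX2 and BEST1 the medians were -0.0008 and 0.04. The part of a shift of the region in the fall of PAX6 was not tested. Beside BEST1, RAB3IL1 rose from 1.38 ± 0.271 to 4.62 ± 1.34 CPM and INCENP fell from 177 ± 14.3 to 147 ± 13.6 CPM.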
